A study of Mus musculus with 4 samples.

Results

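The genes of nucleotide excision repair and of the Y-family translesion polymerases were described in the mouse line Beta-TC-6, established from an insulinoma of mice that carried the SV40 large T antigen under an insulin promoter. The 10 genes are Xpc, Xpa, Ercc1, Ercc2, Ercc3, Ercc4, Ercc5, Ercc6, Polk and Polh, out of 22180 genes with a probe set that carries their symbol alone. Their probe sets were selected on the highest mean level over the 4 arrays, a choice that was not needed because each of the 10 genes had a single probe set. The list of genes itself was drawn up with results of these arrays known, so levels and differences are given as a description of these genes. All 10 had a mean level at or above the median over genes, 1.84 on the log2 scale.

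One group of cells was transfected with a mixture of RNA duplexes against NF90 (siNF90), a protein that binds double-stranded RNA, and the control group with a negative control siRNA (siNTC), both with a lipid reagent. Each group had 2 arrays (Affymetrix Mouse Gene 2.1 ST, a single-colour array that probes whole transcripts), hybridised with total RNA of cells grown in medium with 25 mM glucose. Both groups were the same line, and the labels name no agent that damages DNA. The transcript that encodes NF90 was not analysed here, so the depletion of the target was not checked, and siNF90 names a label. The labels do not say that the replicates are separate cultures, so a p-value here reflects array-to-array spread that may be purely technical. The comparison asks which transcripts depend on NF90.

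The arrays shared their scale. Their medians over genes were 1.88 on both siNF90 arrays and 1.86 on both siNTC arrays, and the median absolute gap between the 2 arrays of a group was 0.15 in siNF90 and 0.15 in siNTC. All 7 beta cell markers lay above the median level, with Iapp, the islet amyloid peptide, at 10.3 in siNF90 and 10.46 in siNTC. Of these markers 3 were higher and 4 lower in siNF90, with the widest difference at Nkx6-1, a beta cell transcription factor, which stood at 6.08 and 6.19 in siNF90, against 5.68 and 5.69 in siNTC (0.45, limma, adjusted p = 0.397). Of 15 markers of other islet, exocrine, duct, blood, endothelial and connective tissue cells, 5 had a mean at or above that median. Their log2 values summed to 37.51 and 39.48 on the siNF90 arrays, against 38.06 and 37.37 on the siNTC arrays, so the groups overlapped. Ptprc, which defines blood cells, averaged 1.11 in siNF90 and 1.12 in siNTC, below the array medians. Gcg (glucagon, the hormone of alpha cells) stood at 8.83 in siNF90 and 8.62 in siNTC, and Sst (somatostatin, of delta cells) at 6.63 in siNF90 and 6.86 in siNTC. Whether all cells or a subset carried these transcripts cannot be told from RNA of whole cultures. The lysosomal glycoprotein Cd68 was 2.18-fold higher in siNF90, while Adgre1, a macrophage receptor, lay near 1 in both groups. The part of this in the results below was not tested.

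Nucleotide excision repair removes bulky lesions that bend the double helix, such as those made by ultraviolet light. XPC finds the distortion in the genome at large, whereas CSB, the product of Ercc6, acts where RNA polymerase has stalled. TFIIH then opens the helix with the helicases XPD (Ercc2) and XPB (Ercc3), XPA checks the lesion, and the nucleases XPF-ERCC1 (Ercc4 and Ercc1) and XPG (Ercc5) cut on either side of it. Where a lesion meets the replication fork unrepaired, the polymerases kappa (Polk) and eta (Polh) copy across it. In humans, loss of genes of this group causes xeroderma pigmentosum or, for CSB, Cockayne syndrome. Messenger levels on an array report neither repair nor bypass.

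The upstream sequences of Polk, Ercc5 and Polh are shown because Polk and Ercc5 were among the genes with higher values in siNF90, while Polh, the sister polymerase of Polk, was not. Windows before RefSeq (GRCm38.p6) start sites were used for 8 of the 10 genes. Each window holds the 250 bases before the start site, read 5′ to 3′ on the strand of the gene. Those of Polk are chr13:96519188-96519437 and chr13:96542580-96542829, both on the minus strand. That of Ercc5 is chr1:44147494-44147743 on the plus strand and that of Polh is chr17:46202642-46202891 on the minus strand. Capitals mark a match to the p53 half-site in the window of the downstream start site of Polk. The window of its upstream start site had no such match. In Polh, capitals mark the motif GCGCATGC, the core bound by the factor NRF1, where overlapping matches on both strands were joined.
Polk, downstream start site: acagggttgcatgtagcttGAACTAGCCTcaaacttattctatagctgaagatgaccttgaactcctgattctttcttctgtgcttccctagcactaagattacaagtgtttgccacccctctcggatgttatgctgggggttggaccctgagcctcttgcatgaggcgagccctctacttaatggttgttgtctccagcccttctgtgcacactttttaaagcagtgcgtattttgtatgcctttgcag
Polk, upstream start site: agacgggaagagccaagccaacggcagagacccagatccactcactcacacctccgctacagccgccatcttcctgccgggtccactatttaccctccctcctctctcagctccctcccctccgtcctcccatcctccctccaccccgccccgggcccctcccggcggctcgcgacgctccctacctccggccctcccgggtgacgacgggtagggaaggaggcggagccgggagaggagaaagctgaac
Ercc5: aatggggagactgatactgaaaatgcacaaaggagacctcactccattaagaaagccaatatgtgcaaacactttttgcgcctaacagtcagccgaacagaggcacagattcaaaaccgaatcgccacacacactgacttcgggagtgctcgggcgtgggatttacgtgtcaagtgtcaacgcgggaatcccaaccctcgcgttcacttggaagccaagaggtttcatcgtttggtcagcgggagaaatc
Polh: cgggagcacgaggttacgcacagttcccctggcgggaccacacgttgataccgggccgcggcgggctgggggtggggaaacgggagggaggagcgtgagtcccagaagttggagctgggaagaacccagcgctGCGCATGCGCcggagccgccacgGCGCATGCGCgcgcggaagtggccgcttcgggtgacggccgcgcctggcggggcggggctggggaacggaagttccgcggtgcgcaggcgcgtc

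The windows of Polk and Polh differ in composition and in motifs. The upstream start site of Polk has a window with 68.0% G and C and a single GC box, while the window of its downstream start site has 46.8% and no GC box. Polh has 73.2%, a GC box and 2 separate sites with the NRF1 core, which occurs in 2.26% of 32851 promoter windows of this length. Xpa has 1 such match, and the windows of the other members with a window had none. Ercc5 has no GC box and a single CCAAT box. The p53 half-site, searched on both strands, was found in 7.13% of all windows and in no other window of the 8 genes that had one. Xpc and Ercc3 were not searched. The GC box was searched as GGGCGG and occurs in 32.7% of windows, and the CCAAT box as CCAAT, in 33.8%. These motifs were chosen after the values were seen. A match is a string of letters in this window, not a site that was measured.

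Xpc, the damage sensor, stood at 2.64 and 2.51 on the siNF90 arrays, against 2.16 and 2.29 on the siNTC arrays (log2). The siNF90 arrays were both above the siNTC arrays, with a gap of 0.22 between the groups. The means were 2.58 ± 0.09 in siNF90 and 2.22 ± 0.09 in siNTC (SD, n = 2 each), a log2 difference of 0.35 ± 0.13 (SE) or 1.27-fold. These values were not far above the array medians. No background level was given with the values, so how much of such a value is signal cannot be said. Limma's test over all genes gave Xpc an adjusted p of 0.455.

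Ercc6, the sensor of stalled transcription, stood at 5.21 and 5.28 in siNF90, against 5.35 and 5.39 in siNTC. The siNF90 arrays lay below the siNTC arrays by 0.07 at the closest, which is less than the usual gap between arrays of a group. The log2 difference was -0.12 ± 0.12, with a 95% interval of -0.41 to 0.16 (limma, adjusted p = 0.773). The entry points into the pathway had differences of opposite sign, and neither passed the test.

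Xpa, the scaffold that checks the lesion, stood at 2.93 and 2.5 in siNF90, against 2.73 and 2.64 in siNTC. The siNF90 arrays lay on either side of the siNTC arrays, and their gap of 0.43 was wider than that of any other of the 10 genes. The log2 difference was 0.03 ± 0.17, with an interval of -0.39 to 0.45. Without the first siNF90 array the difference was -0.18.

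The helicases of TFIIH, a factor that serves both repair and the start of transcription, were level or slightly lower. Ercc2 stood at 3.91 and 4.24 in siNF90, against 3.99 and 4.16 in siNTC. The arrays overlapped, both means were 4.08 and the difference was 0 ± 0.16. Ercc3 stood at 5.44 and 5.27 in siNF90, against 5.62 and 5.46 in siNTC, so the groups were separated by only 0.02. Its log2 difference was -0.18 ± 0.13 (limma, adjusted p = 0.692).

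The nucleases were level or higher in siNF90. Ercc5 (XPG, which cuts on the downstream side of the lesion) stood at 4.16 and 3.94 in siNF90, against 3.74 and 3.67 in siNTC. Each siNF90 array read higher than each siNTC array, and the log2 difference was 0.35 ± 0.13 or 1.27-fold (limma, adjusted p = 0.474). Ercc4 (XPF, the catalytic subunit of the nuclease on the upstream side) stood at 3.02 and 3.06 in siNF90, against 2.76 and 2.89 in siNTC. The groups did not overlap, and the log2 difference was 0.21 ± 0.12 (adjusted p = 0.605). Ercc1, the partner that XPF needs for stability, stood at 3.12 and 3.03 in siNF90, against 3 and 3.11 in siNTC, and the groups overlapped. Its difference was 0.02 ± 0.12.

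The subunits of the XPF-ERCC1 nuclease were also set against each other. Within each array, Ercc4 minus Ercc1 was -0.1 and 0.03 in siNF90, against -0.24 and -0.22 in siNTC. The siNF90 values were the higher ones on this within-array scale, by 0.2 on average. This measure reuses the values above, with Ercc4 at 0.21 and Ercc1 at 0.02, and is no separate evidence. With 2 arrays a group the smallest two-sided p of an exact permutation test is 0.33, and no such test was run. Ercc1 and Ercc2 are neighbours on chromosome 7 in RefSeq. The protein-coding genes that lie between them, Cd3eap and Ppp1r13l, also had overlapping groups, with Cd3eap at 3.49 and 3.62 in siNF90, against 3.38 and 3.71 in siNTC.

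**Figure D1:**
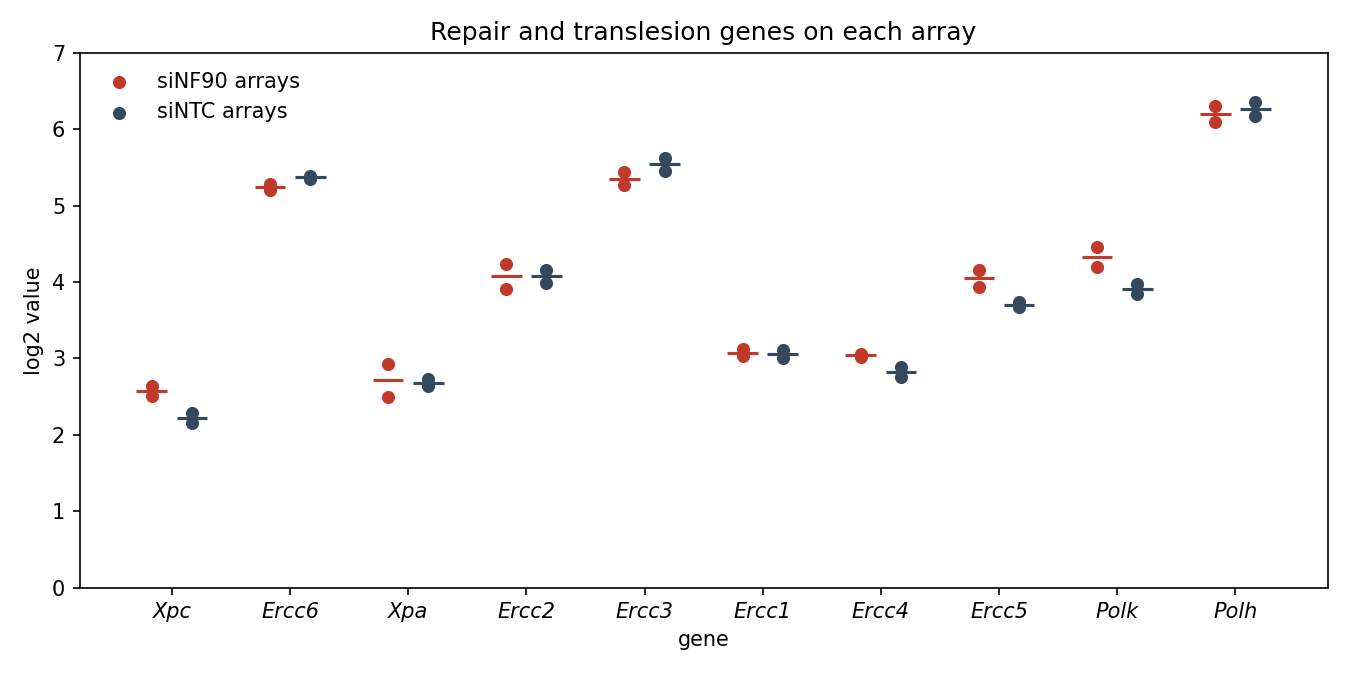
Log2 values of the 10 genes (horizontal axis, ordered by their step in repair, polymerases last) on each array. Points are arrays, lines are group means, red is siNF90 and dark blue siNTC. The red points of Polk lie at 4.2 and 4.46, above the siNTC points at 3.84 and 3.97, whereas those of Polh overlap.

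Of the translesion polymerases, Polk read higher in siNF90, while Polh was near level with overlapping groups. Polk, the polymerase that passes bulky adducts on guanine and also fills repair gaps, stood at 4.2 and 4.46 in siNF90, against 3.84 and 3.97 in siNTC. The siNF90 arrays were both above the siNTC arrays, by at least 0.23. The means were 4.33 ± 0.18 in siNF90 and 3.91 ± 0.09 in siNTC (SD, n = 2 each), and the log2 difference of 0.43 ± 0.14, or 1.34-fold, was the widest of the 10 genes. Its 95% interval was 0.07 to 0.78, and limma's test over all genes gave an adjusted p of 0.439. Of all genes, 6.6% had a larger absolute difference than Polk.

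Polh, the polymerase that copies accurately across the thymine dimers made by ultraviolet light, stood at 6.3 and 6.1 in siNF90, against 6.36 and 6.18 in siNTC. The groups overlapped, and the log2 difference was -0.07 ± 0.14 with an interval of -0.41 to 0.27. Polk minus Polh, taken within each array, was -2.1 and -1.64 in siNF90, against -2.52 and -2.21 in siNTC. The siNF90 values lay above both siNTC values, with a shift of 0.5 between the groups. This measure reuses the Polk values above and is no separate evidence. Taken the same way, Xpc minus Xpa was also higher in siNF90, while Ercc5 minus Ercc4 and Ercc2 minus Ercc3 overlapped. The share of gene pairs separated in this way was not computed. In both groups the first array of Polh read higher than the second.

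**Figure D2:**
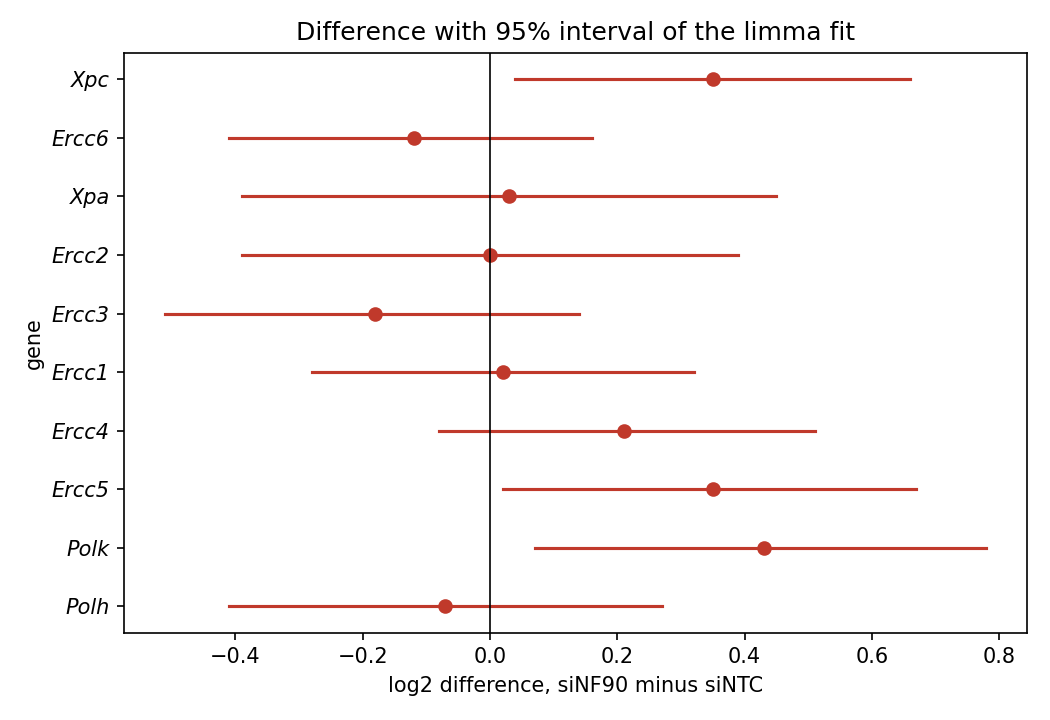
Log2 difference, siNF90 minus siNTC, of the 10 genes with the 95% interval of the limma fit over all genes. The intervals of Polk, Xpc and Ercc5 lie above 0, the other 7 include it, and these intervals are not adjusted for the number of genes. With a limma prior fitted as a trend on level, the unadjusted p was above 0.05 for Xpc and Ercc5.

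None of the 10 genes passed limma's test at an adjusted p under 0.05, where 0% of the 22180 genes did (smallest adjusted p over all genes 0.342). At an unadjusted p under 0.05 there were 3 of the 10, Polk, Xpc and Ercc5, and 10.3% of all genes. With a limma prior fitted as a trend on level, 0.455% of all genes passed at an adjusted p under 0.05 and none of the 10 did. Adjusted p in that fit was 0.296 for Polk, 0.414 for Ercc5 and 0.525 for Xpc. Its unadjusted p was 0.0216 for Polk, 0.0517 for Ercc5 and 0.1 for Xpc, so only Polk stayed under 0.05. In 4 of the 10 (Polk, Xpc, Ercc5 and Ercc4) each siNF90 array read higher than each siNTC array, as in 21.9% of all genes. In 2 (Ercc3 and Ercc6) each read lower, as in 17.9% of all genes. The difference was above 0 in 6 of the 10 and below 0 in 3, against 53.1% and 45.8% of all genes. With quantile normalization it was above 0 in 4 and below 0 in 4 after rounding, where Xpa and Ercc1 rounded to 0 from below. The median log2 difference of the 10 was 0.03, against 0.02 over all genes. The median does not show the spread within the group, in which 3 genes differed by 0.35 or more after rounding and 4 by no more than 0.07 in either direction.

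The partners of the 10 genes in repair and bypass were read from 6 lists by role, with 52 measured genes. Of these, 19 were higher and 32 lower in siNF90, against 53.1% and 45.8% of all genes. The median log2 difference was -0.06, and none passed the test. Each siNF90 array read higher than each siNTC array in 6 of the 52 and lower in 16, against 21.9% and 17.9% of all genes. The list of gap filling and ligation held 15 of the 32 lower genes and 8 of these 16.

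Damage recognition had 5 measured genes besides Xpc. Rad23b and Cetn2, the subunits that hold XPC in its complex, differed by -0.01 and -0.02. Ddb1, which joins the ubiquitin ligase that marks damaged chromatin, differed by 0.01. The alternative scaffolds of that ligase had opposite signs. Cul4a stood at 5.96 and 5.96 in siNF90, against 5.76 and 5.67 in siNTC, and Cul4b at 7.36 and 7.36 in siNF90, against 7.63 and 7.59 in siNTC. The arrays of the groups were separated in both, by 0.2 and 0.23, with log2 differences of 0.25 and -0.25 (limma, adjusted p = 0.546 and 0.533). Of the 7 other TFIIH subunits, 4 were higher and 3 lower, with differences between -0.12 and 0.14. Those of the largest size were Cdk7, its kinase, at 0.14, Gtf2h5, a small subunit that stabilises the complex, at 0.14, and Gtf2h3, a core subunit, at 0.13. In transcription-coupled repair, 4 of 6 genes were higher and 2 lower. Hmgn1, a nucleosome-binding protein, stood at 4.81 and 4.92 in siNF90, against 5.28 and 5.14 in siNTC, a difference of -0.34 (adjusted p = 0.455). The splicing factor Xab2, which binds XPA, differed by 0.12 and Ercc8, the CSA protein that works with CSB, by -0.11.

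Gap filling and ligation, the last steps of excision repair, which share their proteins with DNA replication, had 15 of 19 genes lower in siNF90 and 4 higher. The median of their log2 differences was -0.12, and over all genes 45.8% were lower and 53.1% higher. Each siNF90 array read lower than each siNTC array in 8 of the 19, against 17.9% of all genes. The largest differences belonged to the 3 subunits of RPA, the complex that coats the single strand opened in repair. Rpa1 stood at 6.74 and 6.69 in siNF90, against 7.09 and 7 in siNTC, a difference of -0.33 ± 0.12 (limma, adjusted p = 0.454). Rpa2 stood at 5.25 and 5.32 in siNF90, against 5.59 and 5.69 in siNTC, a difference of -0.36 ± 0.12 (adjusted p = 0.439). In both genes the groups were separated by more than the usual gap between arrays. Rpa3 differed by -0.4 ± 0.22 with overlapping groups, since its siNF90 arrays stood at 6.11 and 6.68.

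Among 5 other translesion polymerase genes, 2 were higher and 2 lower. Mad2l2 (REV7, a subunit of polymerase zeta) stood at 4.88 and 4.94 in siNF90, against 4.59 and 4.61 in siNTC, a difference of 0.31 ± 0.12 (limma, adjusted p = 0.463). Rev3l, its catalytic subunit, differed by -0.17, Rev1, the scaffold that recruits Polk and Polh, by 0, and Polq by -0.2. Poli, the Y-family relative of Polh, differed by 0.18. Of 10 genes that ubiquitinate or deubiquitinate PCNA or remodel stalled forks, 3 were higher and 7 lower. Ube2a, a ubiquitin-conjugating partner of Rad18, stood at 4.53 and 4.21 in siNF90, against 4.03 and 3.49 in siNTC, a difference of 0.61 ± 0.22 (adjusted p = 0.445). Ube2b, the close relative of Ube2a, differed by -0.1, Ube2v2 by -0.22, the deubiquitinase Usp1 by -0.14 and Rad18 itself by -0.14.

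**Figure D3:**
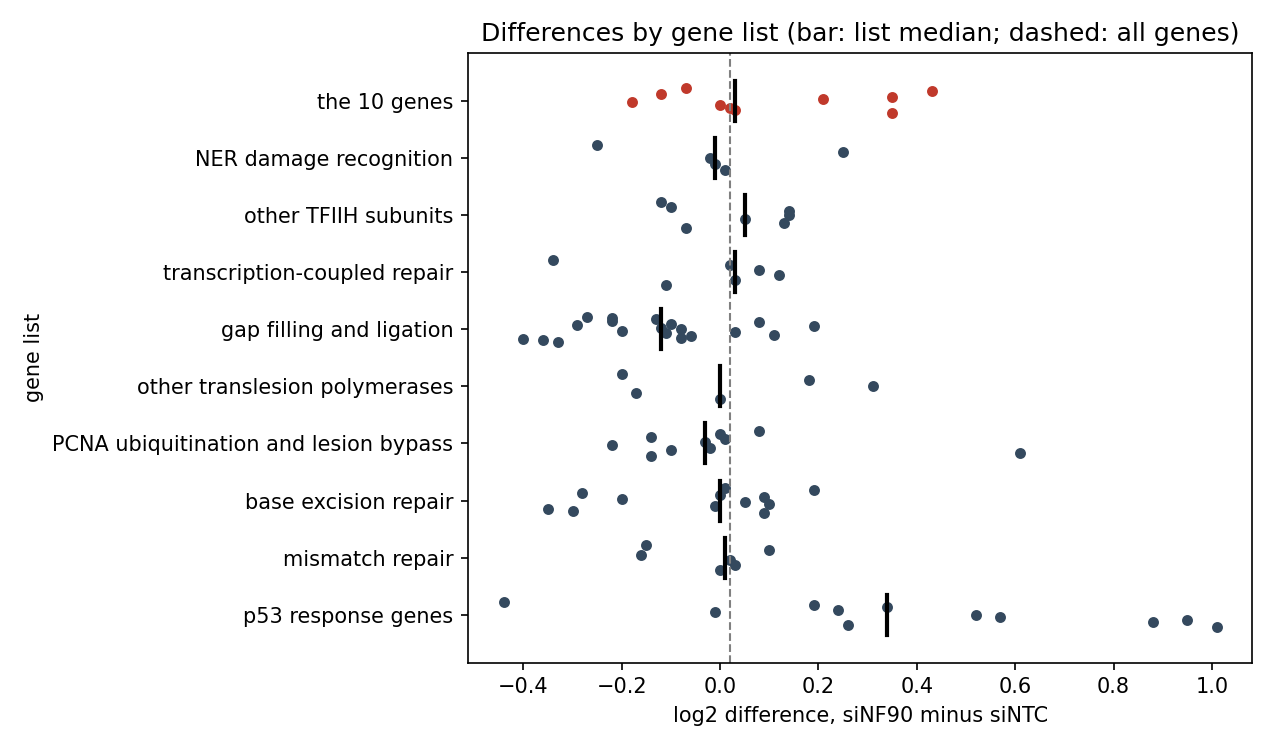
Log2 differences, siNF90 minus siNTC, by gene list. Each point is a gene, the black bar the median of its list, the dashed line the median of all genes (0.02). The 10 genes (red) run from -0.18 to 0.43, the list of gap filling and ligation has its median at -0.12, and the p53 list at 0.34.

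In base excision repair, which removes small damaged bases, 6 of 12 genes were higher and 6 lower, with a median log2 difference of 0. The widest was at Ung (-0.35), where the groups overlapped, at 3.23 and 4 in siNF90, against 3.99 and 3.93 in siNTC. Mismatch repair had 3 of 6 genes higher and 2 lower, with a median of 0.01 and the widest at Pms1 (-0.16), and none of these genes passed the test.

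Genes that respond to p53, the tumour suppressor induced by DNA damage, stood beside the 10 genes because XPC is known as a p53-responsive gene in human cells. This list was drawn up with its result known, so it is no independent evidence. Of 11 measured genes, 9 were higher and 2 lower in siNF90, against 53.1% and 45.8% of all genes. The median of the log2 differences was 0.34. Cdkn1a, the p21 inhibitor of the cell cycle, stood at 7.42 and 7.33 in siNF90, against 6.33 and 6.39 in siNTC, a difference of 1.01. Ccng1 (cyclin G) differed by 0.88 and Zmat3 (an RNA-binding zinc finger protein) by 0.95. None passed the test over all genes, and with the trend on level these 3 did, Cdkn1a with an adjusted p of 0.00633. Rrm2b, a subunit of ribonucleotide reductase that p53 induces, went the other way, at 3.8 and 4.04 in siNF90, against 4.25 and 4.46 in siNTC, a difference of -0.44 (adjusted p = 0.439). The activity of p53 was not measured in this line, which came from mice that carried the SV40 large T antigen. The median of the 10 repair and translesion genes was 0.03, and a link between them and this list was not tested.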

How the data were processed

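The members and gene lists were chosen with earlier results of these data known. The authors deposited 1 table of log2 values for 41345 probe sets on 4 arrays. Transcriptome Analysis Console made the table, per the submitters' processing notes. Version, background correction, normalization and genome build were not stated there, and log base 2 was inferred from the range of the values. Precision is limited by the number of arrays.

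The platform annotation gave the names of probe sets. Of them, 23521 had 1 symbol and were kept, and of these 23328 matched RefSeq (GRCm38.p6) by gene identifier. For 1082 genes with several, the probe set with the highest mean was used. All 22180 genes were fitted with limma 3.58.1 in R 4.3.3 (lmFit, eBayes without a trend, 2 residual and 3.92 prior degrees of freedom), siNF90 minus siNTC, with Benjamini-Hochberg adjustment over all genes and a threshold of 0.05. The fit was tested on simulated data. No filter on level was used. Text names all 10 members and up to 3 genes per list with the largest absolute difference, others (Ddb1, Rad23b, Rev1, Rev3l, Ube2b, Rad18, Rrm2b, the genes between Ercc1 and Ercc2 and some markers) by role after their values were seen. Alternatives were quantile normalization, median centring, a robust prior, a trend in the prior, a replicate block, other uses of probe sets, a level filter and leaving out each array. Genes of the lists not named with a single symbol were not analysed here.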

Additional observations from a re-analysis of the deposited data

How the results depend on the processing

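Over 12 alternatives for each of the 10 genes, none of 120 results passed limma's test (adjusted p from 0.254 to 1). Polk, Xpc, Ercc5 and Ercc4 stayed above 0 and Ercc3 and Ercc6 below 0 in all of them. Without each array in turn, which leaves a group with 1 array whose spread is assumed to equal that of the other group, Polk ranged from 0.3 to 0.56, Xpc from 0.29 to 0.42, Ercc5 from 0.24 to 0.46, Ercc4 from 0.15 to 0.28, Ercc3 from -0.27 to -0.1 and Ercc6 from -0.16 to -0.09. Genes near 0 changed sign, Xpa between -0.18 and 0.25, Ercc1 between -0.03 and 0.08, Ercc2 between -0.16 and 0.17 and Polh between -0.17 and 0.03. With quantile normalization Xpa and Ercc1 rounded to 0 from below, and with median centring the difference of Ercc1 was 0. Counted after rounding, 4 genes were above 0 and 4 below with quantile normalization, and 5 above and 4 below with median centring. The main fit had 6 above and 3 below. The median of the 10 genes was 0 with quantile normalization and 0 with median centring. Without the first siNF90 array 5 were above and 5 below. That median ranged from 0.05 to 0.13 without an array, and that of the 52 partner genes from -0.08 to -0.04, with -0.08 also after median centring. The count of all genes past the threshold was 0, and 101 with a trend in the prior. With the replicate number as a block in the limma fit it was 0 (smallest adjusted p = 0.591). The main fit also had 0, so the block had no call to remove. Same-numbered arrays are not stated to share a batch, and their deviations from the group means correlated at -0.0202 across genes. The causes were not tested.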
